A study of Homo sapiens with 12 samples.

Results

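OE33 cells that had survived repeated acidified bile and then carried a control hairpin vector (rABS_shCtrl, 3 libraries) were compared with OE33 cells that had never been exposed (Parental, 3 libraries), which are 6 of the 12 libraries of the series. The comparison asks which differences from Parental were still present after transduction, selection and further culture, and the 3 libraries of exposed, untransduced cells (rABS) serve as the reference for exposed cells without the vector. OE33 is an established epithelial line from human esophageal adenocarcinoma. Parental cells were untreated. The rABS cells had been given a bile salt cocktail of 200 µM at pH 5.5 for 20 minutes on each of 15 days, and the survivors were collected. The rABS_shCtrl cells were such survivors with a stably integrated non-targeting shRNA. The remaining 3 libraries, rABS_shAPE1, carried a hairpin against APE1. They entered the choice of genes tested, the scaling between libraries and the shared estimate of spread, but none of the comparisons. The labels name no group handled for 15 days without bile and no Parental culture with the vector. The effects of the vector, of any selection for it and of the added time in culture therefore cannot be told apart, and the sources used here name neither the hairpin sequence nor the selection agent nor the length of that culture. Nor do the labels say that the 3 libraries of a group came from separate cultures, so the p-values measure the spread between these libraries, which may be technical.

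Reflux carries gastric acid and bile salts onto the lower esophagus, where bile acids at low pH enter cells as uncharged molecules, generate reactive oxygen species and damage DNA and membranes. Cells meet such injury through the integrated stress response, in which phosphorylation of eIF2 favours translation of the transcription factor ATF4 and so the genes for amino acid supply, and through heat shock, oxidative and DNA damage responses. APE1, encoded by APEX1, cuts the DNA backbone at sites that have lost a base and is the endonuclease that the study's other hairpin targets.

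The libraries held 15736087 to 23010377 counts each, and 15805 of the 57500 genes listed had enough counts to be tested. CPM are counts of a gene per 1000000 counts of the library. Marker sums are given without scaling between libraries, whereas the values of single genes further on are scaled (TMM), so that a gene can stand slightly above the sum that holds it. The sum of 10 epithelial markers was 14180 to 17270 CPM in Parental, 12370 to 14720 in rABS and 12780 to 13970 in rABS_shCtrl. Columnar lineage markers, 10 as well, summed to 560 to 634 CPM in Parental, 230 to 262 in rABS and 211 to 228 in rABS_shCtrl, with CDX1 and TFF3 at 0 counts in all of these libraries. Leukocyte markers summed to at most 10.3 CPM and endothelial markers to at most 21.3 CPM in any library. Fibroblast markers, carried almost wholly by COL1A1, summed to 20.9 to 27.1 CPM in Parental, 3.53 to 4.22 in rABS and 9.59 to 10.1 in rABS_shCtrl, with LUM, PDGFRA and POSTN at 0 counts.

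**Figure D1:**
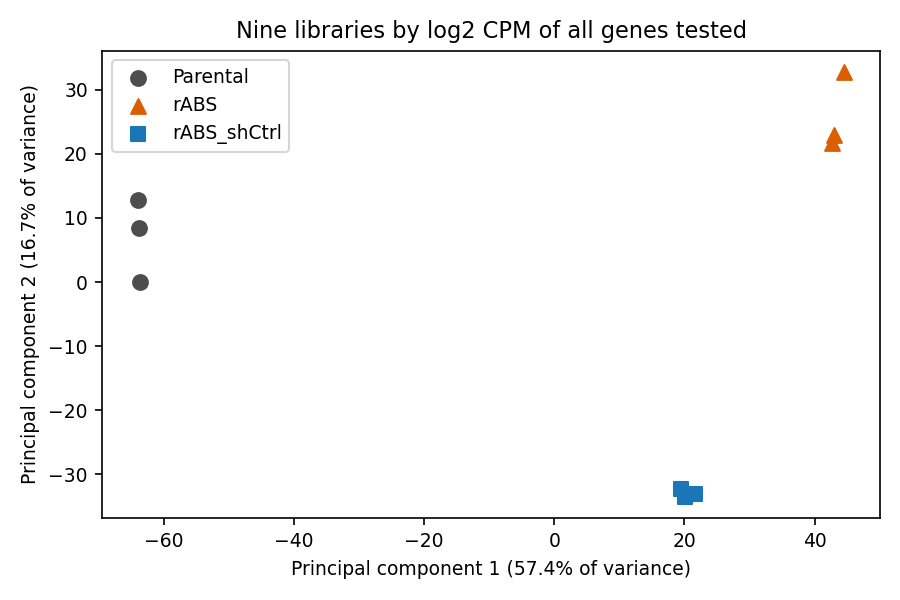
Principal components 1 and 2 of log2 CPM over the 15805 genes tested, 1 point per library (circles Parental, triangles rABS, squares rABS_shCtrl). The rABS_shCtrl libraries lie on the rABS side of the first component (57.4% of the variance) and apart from both other groups on the second (16.7%).

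Most genes that differed between rABS and Parental also differed between the transduced cells and Parental. A gene was called where its adjusted p (edgeR quasi-likelihood test, Benjamini-Hochberg over the 15805 genes) was under 0.05. By that rule 4271 genes (27%) were higher and 4123 (26.1%) lower in rABS_shCtrl than in Parental, and of these 1294 (8.19%) and 839 (5.31%) differed at least 2-fold. In all, 53.1% of the tested genes were called. In rABS the counts against the same 3 Parental libraries were 4729 higher (29.9%) and 4725 lower (29.9%), together 59.8%. Of the genes higher in rABS, 3328 were also higher in rABS_shCtrl, which is 70.4% of the rABS calls and 77.9% of the rABS_shCtrl calls. Of the genes lower in rABS, 3340 were also lower in rABS_shCtrl, 70.7% and 81% of the respective lists. Both comparisons share the Parental libraries, so these overlaps are descriptions. Between rABS_shCtrl and rABS themselves, 2832 genes (17.9%) were higher in rABS_shCtrl and 2935 (18.6%) lower, together 36.5%.

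These calls give each difference a position. Among the genes higher in rABS, 1904 (12% of all genes tested) remained without a call between rABS_shCtrl and rABS, 1175 (7.43%) remained part-way (still higher than Parental, but lower than rABS) and 249 (1.58%) remained and lay further from Parental than in rABS. Another 859 (5.43%) had returned, which here means that they were lower than in rABS and no longer called against Parental, 89 (0.563%) were reversed, that is, called lower than Parental, and 453 (2.87%) had lost their call without a called move from rABS. Among the genes lower in rABS, 2024 (12.8%) remained without a call against rABS, 1058 (6.69%) were part-way, 258 (1.63%) further, 757 (4.79%) returned, 79 (0.5%) reversed and 549 (3.47%) without either call. Of the 1602 genes at least 2-fold higher in rABS (10.1% of all tested) 85.3% were still called, and of the 1472 at least 2-fold lower (9.31%) 75.4%. A missing call against Parental does not show that a level was the same as in Parental. A further 455 genes (2.88%) were higher and 392 (2.48%) lower than both Parental and rABS, which did not differ by the test, and these later differences reached 2-fold for 138 and 28 genes.

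**Figure D2:**
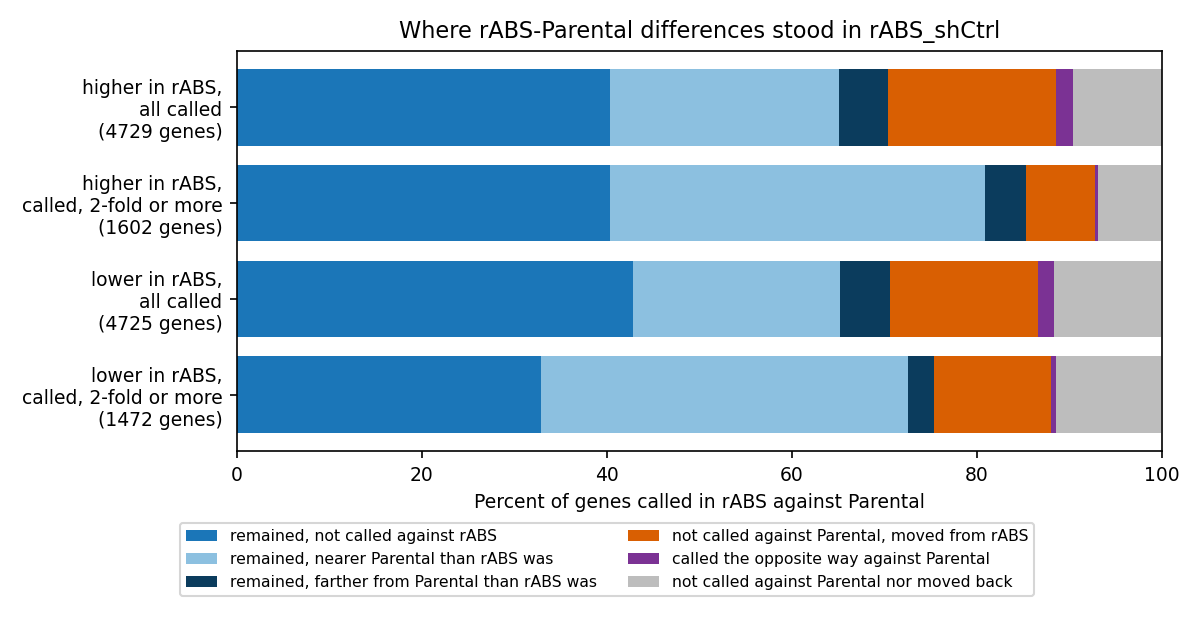
Stacked bars of the percent of genes called in rABS against Parental that fell into each position in rABS_shCtrl, for all called genes and for those at least 2-fold changed in rABS. The 3 blue segments are differences that remained, together 70.4% of the 4729 higher genes and 70.7% of the 4725 lower genes.

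The largest rise among genes at 5 CPM or more in either group was in the long non-coding RNA LINC02474, which had 0 counts in the 3 Parental libraries and 8.51, 10.3 and 12.2 CPM in the 3 rABS_shCtrl libraries. Set against a floor of 3 counts over the Parental group, it was at least 182-fold higher in rABS_shCtrl and at least 128-fold higher in rABS. SLC2A3, the neuronal-type glucose transporter (chr12:7919230-7936275, GRCh38, GENCODE 29, as for the other positions of genes), measured 0.208, 0.0936 and 0 CPM in Parental cells, 2.33, 1.75 and 2.62 in rABS and 7.61, 6.92 and 9.21 in rABS_shCtrl. Every rABS_shCtrl library was thus above every rABS library, and the fitted rise over Parental was 77.8-fold, from 5 Parental counts in all (log2 6.28 ± 0.33 SE, adjusted p = 1.07e-16). INSR, the insulin receptor, likewise went from 5 counts over the Parental libraries to 5.81, 6.15 and 6.67 CPM (61.2-fold). SERPINB2, a plasminogen activator inhibitor, was at 0.415, 0.234 and 0.472 CPM in the Parental libraries, 21.6, 25.1 and 21 in rABS and 27.3, 18.7 and 23.1 in rABS_shCtrl, so that the libraries of rABS and rABS_shCtrl interleaved. EDAR, a TNF receptor family member of skin appendages, rose 60.8-fold over Parental, and ANKRD1, a YAP target gene, 32.9-fold, from 21 and 13 Parental counts in all. VCAN, the matrix proteoglycan versican, was at 8.79, 8.75 and 8.26 CPM in unexposed Parental cells, 231, 205 and 240.5 in rABS and 169, 153 and 161 in rABS_shCtrl, which put it part-way. UGT2B7, a glucuronosyltransferase, rose 18.4-fold and the antisense transcript IGFL2-AS1 16.6-fold, from 24 and 16 Parental counts in all. The membrane mucin MUC16 rose 16.4-fold. Whether the counting used strand is not given in the labels, and reads of IGFL2-AS1 cannot be told from those of a gene on the other strand.

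Thrombomodulin, THBD, the endothelial and epithelial cofactor of protein C (chr20:23045633-23049741), showed the largest fall, from 1350, 1211 and 1311 CPM in Parental to 49.6, 50.3 and 46.2 in rABS and 64.6, 68.2 and 63 in rABS_shCtrl. No library of rABS_shCtrl came near a Parental library, and the fall was 19.8-fold (log2 -4.31 ± 0.082 SE, adjusted p = 7.31e-28). The inhibin chain INHBE fell 17.2-fold, from a mean of 5.01 CPM in Parental to 0.281 in rABS_shCtrl. The adhesion molecule CEACAM7 fell 13.9-fold, from 5.6 to 0.399 CPM. These 2 folds rest on 18 and 25 counts over the rABS_shCtrl libraries. The peptide hormone ADM2 fell 11-fold. GDF15, a stress-induced hormone of the TGF-beta family, was at 2595, 2176 and 2560 CPM in Parental cells, 142, 159 and 139 in rABS and 183, 219.7 and 214 in rABS_shCtrl. It was 11.9-fold below Parental and lay between the other groups. The transcription factors FOS, FOSB and DDIT3 fell 11.6-fold, 10.6-fold and 10.1-fold, and the histone genes H4C11 and H4C12 15.9-fold and 15.6-fold.

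Genes of the integrated stress response were low in the transduced cells, as they had been in rABS. Of 33 tested members, 31 were lower than Parental (26.1% over all genes tested), 1 was higher (the transcription factor ATF5) and 1 had no call (the lipoprotein receptor VLDLR), with a median log2 difference of -1.75 against 0.03 over all genes tested. In rABS the count was 29 lower and 2 higher (29.9% each over all genes) with a median of -2.03. Set directly against rABS, 18 of the 33 were higher in rABS_shCtrl and 5 lower (17.9% and 18.6% over all genes). A part-way position was held by 19 of the members, where over all genes 6.69% were part-way and lower and 7.43% part-way and higher. ATF4, the transcription factor at the centre of the response, measured 696, 735 and 755 CPM in the Parental libraries, 126, 119 and 126 in rABS and 198, 216 and 201 in rABS_shCtrl. The groups did not overlap, and the level in rABS_shCtrl was 3.56-fold below Parental (log2 -1.83 ± 0.065 SE, adjusted p = 4.51e-21) and 1.65-fold above rABS (adjusted p = 2.21e-10). ASNS, asparagine synthetase (chr7:97852118-97872542), moved further between the exposed groups. It was at 626, 682 and 672 CPM in unexposed Parental cells, 22.4, 22.4 and 20.5 in rABS and 89, 78.7 and 85.8 in rABS_shCtrl, 3.88-fold above rABS and still 7.81-fold below Parental (adjusted p = 3.28e-25). TRIB3, a pseudokinase induced by ATF4, read 884, 803 and 954 CPM in Parental cells, 68.6, 76.8 and 77.8 in rABS and 103, 116 and 115 in rABS_shCtrl. The mTORC1 inhibitor DDIT4 stood 9.71-fold below Parental, with 56.7, 65.7 and 57.1 CPM in rABS_shCtrl against 49.1, 53.5 and 42.1 in rABS. DDIT3, the pro-apoptotic factor CHOP, showed no called difference from rABS, with 3.27, 4.45 and 4.48 CPM in rABS_shCtrl and 3.59, 4.07 and 3.73 in rABS against 44.2, 37 and 43.1 in Parental.

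The enzymes that charge tRNAs with amino acids, several of which are ATF4 targets, fell in part. Of 20 tested, 13 were lower and 5 higher than Parental (median log2 -0.66), against 26.1% and 27% of all genes. All 13 had been lower in rABS, where 29.9% of all genes were lower. SARS1, the seryl enzyme, was at 389, 387 and 414 CPM in the Parental libraries, 77.3, 83.9 and 79.7 in rABS and 94.5, 84.8 and 97.2 in rABS_shCtrl. AARS1, for alanine, and CARS1, for cysteine, were 3.46-fold and 3.08-fold below Parental, and WARS1, for tryptophan, 3.27-fold.

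Promoters of these genes were searched for 9 motifs, on both strands, in the 250 bases before and 50 after the start of each gene (RefSeq, GRCh38.p14, 11047 of the tested genes matched). The C/EBP-ATF element TGATGNAA, a composite site to which ATF4 binds with C/EBP proteins, occurred in 5 of 27 stress response promoters (18.5%) and 6 of 16 synthetase promoters (37.5%), against 1.67% of all 11047. The E2F site, TTTCCCGC or TTTGGCGC, occurred in 15 of 31 promoters of DNA replication genes (48.4%), against 3.57% of all. The heat shock element was in 3 of 17 heat shock promoters (17.6%, all 0.29%) and the sterol regulatory element TCACNCCAC in 1 of 17 cholesterol synthesis promoters (5.88%, all 1.1%). The E-box CACGTG was in 9 of 20 ribosome biogenesis promoters (45%, all 10.1%), the antioxidant core TGACNNNGC in 6 of 23 NRF2 list promoters (26.1%, all 15.3%) and the CCAAT box CCAAT in 19 of 24 mitosis promoters (79.2%, all 36.3%). The AP-1 site TGANTCA was in 1 of 21 immediate early promoters (4.76%, all 4.89%) and the TCF site ATCAAAG in 1 of 8 WNT list promoters (12.5%, all 1.52%). Some motifs were more frequent in lists other than those named here. The antioxidant core reached 33.3% in lysosome and autophagy promoters and the CCAAT box 90% in endoplasmic reticulum stress promoters. The AP-1 site was in 5 of 7 squamous promoters (71.4%), and the sterol element in 1 of 10 acid handling promoters (10%). The C/EBP-ATF, E2F, heat shock, E-box and TCF motifs had their highest share in a list named here. The motifs were chosen after the values were seen, and a match is a description, not an occupied site. Some lists are built around a factor and its known targets, such as ATF4 or NRF2. A higher share there can follow from list membership alone and says nothing about these samples. Sequences are shown for 3 stress response and 2 replication genes, since these carry the motif and belong to the groups that moved together. They read 5′ to 3′ on the gene's own strand, with the motif or its reverse complement in capitals. For ASNS (minus strand, chr7:97872458-97872487) and CHAC1 (plus strand, chr15:40953251-40953280) the match lay inside an exon of a GENCODE 29 transcript, and 11 bases on each side are shown. For ATF3 (plus strand, chr1:212565157-212565333), MCM6 (minus strand, chr2:135876444-135876693) and PCNA (minus strand, chr20:5126627-5126785) it lay outside GENCODE 29 exons, and the stretch around it that is free of exons is shown. The RefSeq start of MCM6, from which its stretch was counted, lies a few bases before the outermost start in GENCODE 29.
ASNS: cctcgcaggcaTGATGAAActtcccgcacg
CHAC1: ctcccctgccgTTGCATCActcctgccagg
ATF3: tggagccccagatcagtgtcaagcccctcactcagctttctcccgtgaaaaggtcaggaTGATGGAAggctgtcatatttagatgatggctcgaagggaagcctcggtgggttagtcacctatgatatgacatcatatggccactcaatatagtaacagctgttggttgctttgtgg
MCM6: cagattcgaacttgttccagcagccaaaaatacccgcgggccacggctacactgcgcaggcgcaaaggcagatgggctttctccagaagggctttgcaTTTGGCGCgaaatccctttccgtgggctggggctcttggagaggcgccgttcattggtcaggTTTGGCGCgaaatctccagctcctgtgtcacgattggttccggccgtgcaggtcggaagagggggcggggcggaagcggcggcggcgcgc
PCNA: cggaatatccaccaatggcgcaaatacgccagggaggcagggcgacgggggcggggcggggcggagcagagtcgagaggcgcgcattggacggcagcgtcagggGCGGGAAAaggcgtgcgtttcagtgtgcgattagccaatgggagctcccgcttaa

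CHAC1, an enzyme that degrades glutathione and carries the element on the opposite strand, was at 103, 80 and 100.3 CPM in unexposed Parental cells, 7.12, 8.09 and 9.33 in rABS and 14.9, 19.7 and 16 in rABS_shCtrl. Like ASNS, it lay above rABS and below Parental in every library. ATF3, a transcription factor induced by stress, was at 50.1, 49.4 and 57 CPM in the Parental libraries, 11.5, 13.4 and 11.8 in rABS and 10.1, 10.5 and 11.9 in rABS_shCtrl. It was 4.8-fold below Parental (log2 -2.26 ± 0.12 SE, adjusted p = 1.68e-16), and its transduced and rABS libraries overlapped.

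DNA replication genes lay in the opposite direction. Of 38 tested, 37 were higher in rABS_shCtrl than in Parental (27% over all genes tested) and none lower, with a median log2 of 1.05, and the licensing factor CDT1 was the member without a call. All 38 had been higher in rABS (median 1.65), against 29.9% of all genes, and 34 of the 38 were lower in rABS_shCtrl than in rABS (18.6% over all genes). PCNA, the sliding clamp of the replicative polymerases (chr20:5114953-5126626), measured 79, 82.3 and 80.3 CPM in Parental cells, 447, 456 and 459 in rABS and 286, 284 and 292 in rABS_shCtrl. The 3 groups were well apart, the transduced cells 3.57-fold above Parental (log2 1.83 ± 0.067 SE, adjusted p = 7.32e-21) and 1.58-fold below rABS. Subunits of the MCM helicase held the same order. MCM2 was at 44.9, 37.3 and 42.8 CPM in the Parental libraries, 338, 347 and 308 in rABS and 186, 193 and 189 in rABS_shCtrl, and MCM6, which carries the E2F site in the stretch shown above, at 21.4, 18.4 and 16.8 CPM (Parental), 128, 139 and 139.5 (rABS) and 112, 98.1 and 103 (rABS_shCtrl). MCM3 was at 53.2, 60.5 and 60 CPM in unexposed Parental cells, 330.0, 332 and 328 in rABS and 220.2, 208 and 213 in rABS_shCtrl. MCM4 stood 3.45-fold above Parental.

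Repair genes followed in smaller steps. Among 24 genes of homologous recombination and the Fanconi pathway, 19 were higher than Parental and 1 lower (median log2 0.47), against 27% and 26.1% of all genes. Of the 24, 15 were lower than rABS (18.6% over all genes). BRCA1 read 49.1, 50.4 and 49.7 CPM in Parental cells, 95.3, 96.6 and 95.5 in rABS and 68.8, 63.1 and 62.3 in rABS_shCtrl, a rise of 1.3-fold over Parental. FANCA, EXO1 and BRIP1 were 2.44-fold, 2.44-fold and 2.54-fold above Parental, and the recombination gene XRCC2 3.76-fold.

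In base excision repair, the pathway of APE1, 8 of 21 tested members were higher than Parental, 3 lower and 10 without a call (median log2 0.20), against 27% higher and 26.1% lower over all genes. In rABS 15 were higher (median 0.59), against 29.9% of all genes. None of the 21 was higher in rABS_shCtrl than in rABS, and 12 were lower (17.9% and 18.6% over all genes). The members that had returned numbered 6, among them APEX1, the glycosylases OGG1 and MBD4, the scaffold XRCC1 and PARP2. Over all genes, 5.43% had returned from higher and 4.79% from lower levels. APEX1 (chr14:20455191-20457772) was at 52.9, 54.3 and 56.9 CPM in the Parental libraries, 81.8, 84.5 and 79.9 in rABS and 62, 56.5 and 60.9 in rABS_shCtrl. The highest Parental library exceeded the lowest rABS_shCtrl library, and the difference was not called (log2 0.13 ± 0.082 SE, adjusted p = 0.196; exact permutation p = 0.2, two-sided, where 3 against 3 cannot go below 0.1). Against rABS the APEX1 level was lower, with no overlap (log2 -0.46 ± 0.081 SE, adjusted p = 3.75e-05; exact permutation p = 0.1). The uracil glycosylase UNG remained 2.89-fold above Parental and PARP1, which senses strand breaks, 2-fold, while the glycosylase NEIL2, at 20.3, 21.6 and 17.4 CPM against 8.65, 9.5 and 9.26 in Parental, showed no called difference from rABS.

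Mitosis genes were higher than Parental for 23 of 30 tested and lower for none (median log2 0.47), against 27% and 26.1% of all genes. In rABS_shCtrl 11 were higher than in rABS and 5 lower, against 17.9% and 18.6% of all genes. MKI67, the proliferation antigen, measured 658, 745 and 636 CPM in unexposed Parental cells, 1150, 1024 and 1104 in rABS and 1057, 1021 and 1009 in rABS_shCtrl. CCNB1, the mitotic cyclin B1, was above both other groups in every library, at 80.5, 83.4 and 89.8 CPM (Parental), 109, 112 and 116 (rABS) and 149, 139 and 156 (rABS_shCtrl). BUB1B, of the spindle checkpoint, and FOXM1, a transcription factor of late cell cycle genes, were 2-fold and 1.63-fold above Parental. Because these are bulk libraries, more cells in a phase and more RNA per cell in that phase cannot be told apart.

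Replication-dependent histone genes, which are transcribed in S phase, were lower in the transduced cells than in rABS. Of 57 tested, 52 were higher and 2 lower in rABS than in Parental (29.9% each over all genes). In rABS_shCtrl 7 were higher than Parental, 28 lower and 22 without a call (median log2 -0.23), against 27% higher and 26.1% lower over all genes. All 57 were lower than in rABS (18.6% over all genes). These mRNAs lack a poly(A) tail, and the libraries were made from polyadenylated RNA. Histone genes took 0.844 to 1.03% of the counts in Parental, 1.78 to 2.07% in rABS and 0.886 to 0.919% in rABS_shCtrl, and small non-coding RNAs, which also lack the tail, 0.688 to 1.07% (Parental), 0.875 to 1.27% (rABS) and 0.738 to 0.799% (rABS_shCtrl). The part of the carry-over of such RNA in the histone values was not tested. H4C11 and H4C12, named above among the largest falls, were the 2 already lower in rABS and so differ from the rest of the list. H4C11 was at 45, 35.9 and 52.8 CPM in Parental cells, 13.9, 22.6 and 18 in rABS and 2.8, 2.29 and 3.33 in rABS_shCtrl, and H2AC16 at 88, 65.2 and 79.5 CPM (Parental), 134, 174 and 136 (rABS) and 43.6, 44.6 and 43.2 (rABS_shCtrl). Histone genes have close copies, so reads may be split between them.

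Targets of p53 were lower than Parental for 10 of 23 tested and higher for 4 (median log2 -0.18), where 26.1% of all genes tested were lower and 27% higher (median 0.03). CDKN1A, the cell cycle inhibitor p21, fell below rABS as well, with 201, 183 and 211 CPM in the Parental libraries, 127, 127 and 120.2 in rABS and 58.2, 53.7 and 55.1 in rABS_shCtrl, which was 3.56-fold below Parental (adjusted p = 3.25e-19). GADD45A, a growth arrest gene, and BBC3, the pro-apoptotic PUMA, were 3.84-fold and 2.57-fold below Parental with no call against rABS, and the death receptor TNFRSF10B was 1.99-fold below Parental.

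**Figure D3:**
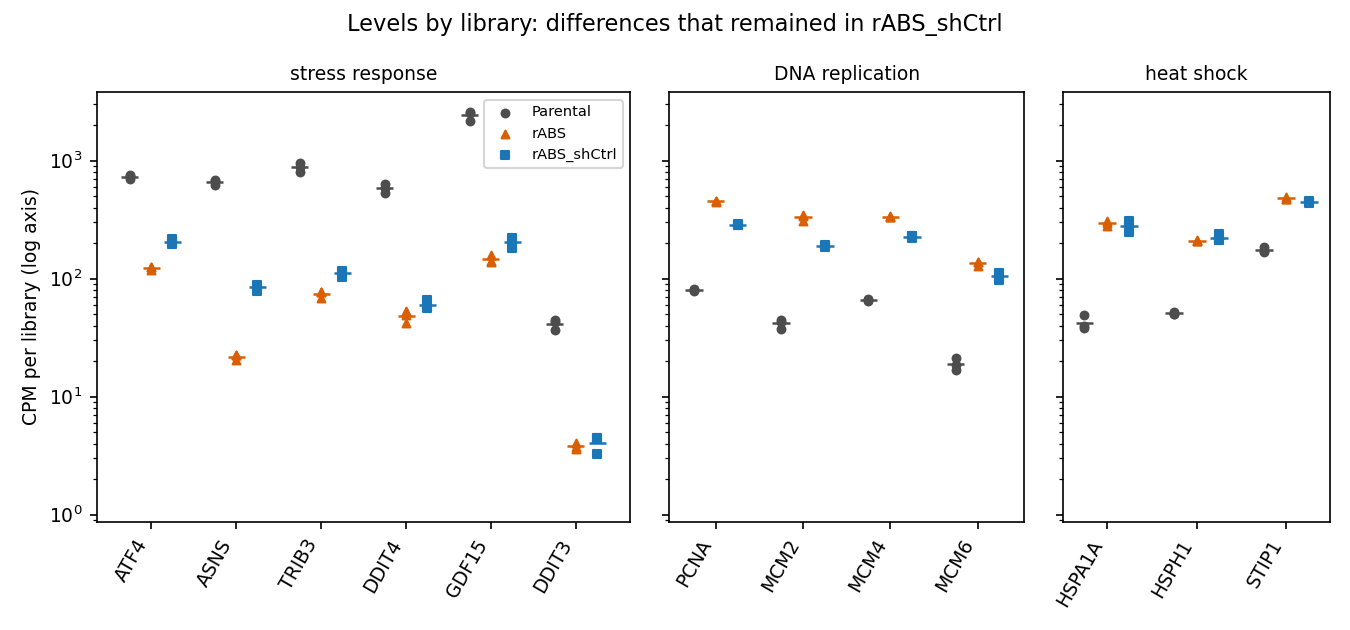
CPM per library (log axis, points) with group means (short lines) for stress response, DNA replication and heat shock genes in Parental (circles), rABS (triangles) and rABS_shCtrl (squares). Stress response genes lie below Parental, ASNS at 89, 78.7 and 85.8 CPM in rABS_shCtrl against 626, 682 and 672 in Parental, and replication and heat shock genes lie above it.

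Cytosolic chaperones were high in both exposed groups. Of 18 heat shock genes tested, 13 were higher than Parental, 2 lower and 3 without a call (median log2 0.91), against 27% higher and 26.1% lower over all genes. Between rABS_shCtrl and rABS 13 had no call, which lies near the background, since only 36.5% of all genes were called there. HSPH1, a nucleotide exchange factor for HSP70, was at 52.5, 50.2 and 49.8 CPM in unexposed Parental cells, 207, 209 and 213 in rABS and 239, 213 and 214 in rABS_shCtrl, with no call between the exposed groups (4.38-fold over Parental, adjusted p = 2.17e-21). STIP1, which links HSP70 to HSP90, stood 2.56-fold above Parental. HSPA1A and HSPA1B, the inducible HSP70 genes, were 6.57-fold and 5.21-fold above Parental, but are nearly identical, so reads may be split between them. HSF1, the transcription factor of the response, was slightly lower (log2 -0.22 ± 0.078 SE, adjusted p = 0.0159), a call lost without Parental replicate 1, rABS_shCtrl replicate 1 or rABS_shCtrl replicate 3 (adjusted p = 0.136, 0.08 and 0.0522).

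Genes of the endoplasmic reticulum stress response did not move in a single direction, with 6 of 21 higher than Parental and 10 lower (27% and 26.1% over all genes). Set against rABS, 14 of the 21 were lower (18.6% over all genes). HSPA5, the ER chaperone BiP, was at 623, 621 and 649 CPM in Parental cells, 609, 637 and 597 in rABS and 288, 268 and 281 in rABS_shCtrl. Parental and rABS overlapped, and the transduced cells were 2.26-fold below Parental (adjusted p = 9.98e-17) and also below rABS (log2 -1.14 ± 0.062 SE, adjusted p = 3.63e-15). XBP1, the transcription factor spliced by IRE1, stood 3.12-fold below Parental, ERN1, which encodes IRE1, 4.57-fold and the degradation factor HERPUD1 3.45-fold.

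Proteasome subunits were higher than Parental for 13 of 29 (27% over all genes), lower for 2 (26.1%) and without a call for 14. In rABS 21 had been higher (29.9% over all genes), and 16 were lower in rABS_shCtrl than in rABS (18.6%). PSMD2, a base subunit of the regulatory particle, read 268, 255 and 274 CPM in the Parental libraries, 630.2, 641 and 640.5 in rABS and 434, 409 and 446 in rABS_shCtrl. Ribosome biogenesis genes were higher in both exposed groups, here with 23 of 25 higher than Parental (27% over all genes) and none lower (median log2 0.90). Yet 14 of the 25 were lower than in rABS (18.6% over all genes). NOP56, a core protein of box C/D snoRNPs, was at 53.6, 48.3 and 49.1 CPM in unexposed Parental cells, 193, 199.8 and 166 in rABS and 147, 139.8 and 133 in rABS_shCtrl, and UTP20, of the small subunit processome, was 2.58-fold above Parental. Of 20 genes of polyamine and nucleotide synthesis, 13 were higher and 3 lower, against 27% and 26.1% of all genes. PRPS1, which makes the ribose donor of nucleotides, stood 3.04-fold and spermidine synthase SRM 2.6-fold above Parental, whereas ODC1, which starts polyamine synthesis, had 117, 109 and 114 CPM in Parental cells, 166, 170.0 and 169 in rABS and 112, 95 and 103 in rABS_shCtrl and was not called against Parental (adjusted p = 0.126, but 0.0449 without rABS_shCtrl replicate 1, with a lower level).

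Antioxidant genes under NRF2 stayed low. Of 29 tested, 23 were lower than Parental and 2 higher (median log2 -0.77), against 26.1% and 27% of all genes. Of those lower, 22 had been lower in rABS, where 29.9% of all genes were lower. NFE2L2, which encodes NRF2, was at 373, 434 and 412 CPM in the Parental libraries, 125, 119 and 130.3 in rABS and 162, 148 and 151 in rABS_shCtrl. Thioredoxin reductase TXNRD1 was lower than in both other groups, 2.58-fold below Parental, and the ferritin heavy chain FTH1 was 2.36-fold below Parental without a call against rABS. UGDH, which makes the sugar donor of glucuronidation, stood 2.3-fold below Parental.

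Lysosome and autophagy genes were lower for 22 of 28 and higher for 4 (median log2 -0.45), against 26.1% and 27% of all genes. The autophagosome protein MAP1LC3B measured 235, 258 and 246 CPM in unexposed Parental cells, 59.8, 54.6 and 59 in rABS and 78.3, 74.7 and 71.4 in rABS_shCtrl. ULK1, the kinase that starts autophagy, and NPC1, the lysosomal cholesterol exporter, were 4.07-fold and 2.62-fold below Parental and part-way, and the cargo receptor SQSTM1 was 2.92-fold below and further down than in rABS. TFEB, a transcription factor of lysosomal genes, had no call, at 14.7, 14.1 and 14.8 CPM in rABS_shCtrl and 18.1, 13.3 and 16.2 in Parental.

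Genes that handle bile acids or acid, the agents of the exposure, showed no common direction. Of 16 bile acid genes, 4 were higher and 7 lower than Parental (against 27% and 26.1% of all genes). ABCC3, a basolateral bile salt exporter, was at 369.5, 351 and 357 CPM in Parental cells, 145, 139 and 146 in rABS and 151, 172 and 169 in rABS_shCtrl. CYP24A1, the vitamin D hydroxylase, and CYP3A5, a drug and bile acid oxidase, were 1.69-fold and 1.83-fold below Parental. Of 17 acid handling genes, 3 were higher, 4 lower and 10 without a call, against 27% higher and 26.1% lower over all genes. The sodium-proton exchanger SLC9A2 was higher, at 15.5, 14.1 and 13.6 CPM against 8.72, 6.46 and 8.02 in Parental. Of 6 glucuronosyltransferases tested, 2 were higher and 3 lower (27% and 26.1% over all genes). UGT1A6 was at 13.6, 17.6 and 11.7 CPM in unexposed Parental cells, 1.14, 0.873 and 1.36 in rABS and 2.9, 3.22 and 4.53 in rABS_shCtrl, and UGT1A10 at 7.2, 6.88 and 7.67 CPM (Parental), 0.285, 0.233 and 0.252 (rABS) and 0.951, 0.933 and 0.597 (rABS_shCtrl). UGT1A genes share their last exons, so their separate values are uncertain.

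Lineage and growth programmes held several of the larger rises. Of 15 WNT feedback and stem cell genes, 11 were higher than Parental and 1 lower (median log2 1.35), against 27% and 26.1% of all genes. Against rABS 10 had no call, which lies near the background, since only 36.5% of all genes were called there. AXIN2, a feedback inhibitor transcribed in response to beta-catenin, read 1.04, 2.15 and 0.826 CPM in Parental cells, 17.9, 20.2 and 16.5 in rABS and 13.7, 14.5 and 12.8 in rABS_shCtrl, 9.69-fold over Parental (adjusted p = 2.14e-15). TNFRSF19 was at 2.56, 3.88 and 3.07 CPM in the Parental libraries, 34.1, 29.4 and 34 in rABS and 30.2, 30 and 32.5 in rABS_shCtrl, with the exposed groups overlapping. The secreted WNT inhibitor DKK1 stood 3.01-fold above Parental, the feedback inhibitor NKD1 6.18-fold and cyclin D1, CCND1, 2.55-fold.

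Squamous and cornified envelope genes were higher for 9 of 14 and lower for 1 (median log2 1.23), against 27% and 26.1% of all genes. Even so, 8 were lower than in rABS (18.6% over all genes). The stress keratin KRT16 measured 1.25, 1.4 and 1.95 CPM in unexposed Parental cells, 6.55, 6.34 and 5.19 in rABS and 8.24, 7.76 and 10.9 in rABS_shCtrl, and the esophageal keratin KRT13 also lay above both groups, at 21, 24.2 and 25.2 CPM against 11.1, 9.78 and 11.2 in Parental. SPRR3, a cornified envelope precursor, was 3.58-fold above Parental. KRT15, a basal keratin, went the other way, from 220.3, 183 and 204 CPM in Parental to 53.3, 55 and 50.2 in rABS and 94, 109.7 and 103 in rABS_shCtrl. Among 16 gastric and intestinal genes, 4 were higher and 7 lower, against 27% and 26.1% of all genes. The gastric mucin MUC5AC fell further after transduction, with 588, 569 and 505 CPM in Parental cells, 155, 124 and 151 in rABS and 86, 105 and 111 in rABS_shCtrl, and the intestinal mucin MUC2 likewise (5.11-fold below Parental). CEACAM5 and CEACAM6, surface antigens of gut epithelium, were each 2.64-fold below Parental.

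Epithelial adhesion genes were lower for 10 of 22 and higher for 4 (median log2 -0.15), against 26.1% and 27% of all genes. CDH1, encoding E-cadherin, was at 946, 1003 and 974 CPM in the Parental libraries, 793, 766 and 771 in rABS and 653, 647 and 659.5 in rABS_shCtrl, a fall of 1.49-fold. ESRP1, an epithelial splicing regulator, and the tight junction gene CLDN1 were part-way, 2.11-fold and 1.87-fold below Parental. Mesenchymal and matrix genes were lower for 11 of 20 and higher for 6 (26.1% and 27% over all genes), and 12 were lower than in rABS (18.6%). MMP7, an epithelial metalloprotease, measured 226, 249 and 249.5 CPM in unexposed Parental cells, 1279, 1330 and 1342 in rABS and 1234, 1170 and 1157 in rABS_shCtrl (4.92-fold over Parental), whereas the collagenase MMP1 fell to 8.4, 6.62 and 7.17 CPM from 29, 22.9 and 27.6 in rABS and 52.2, 56 and 58.9 in Parental. LAMB3, a chain of laminin-332, stood 3.25-fold below Parental. COL1A1, the collagen that makes up most of the unscaled fibroblast marker sum given above, was, on the scaled values, at 29.4, 22.5 and 26 CPM in Parental cells, 3.47, 4.19 and 3.33 in rABS and 9.24, 9.42 and 9.06 in rABS_shCtrl.

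**Figure D4:**
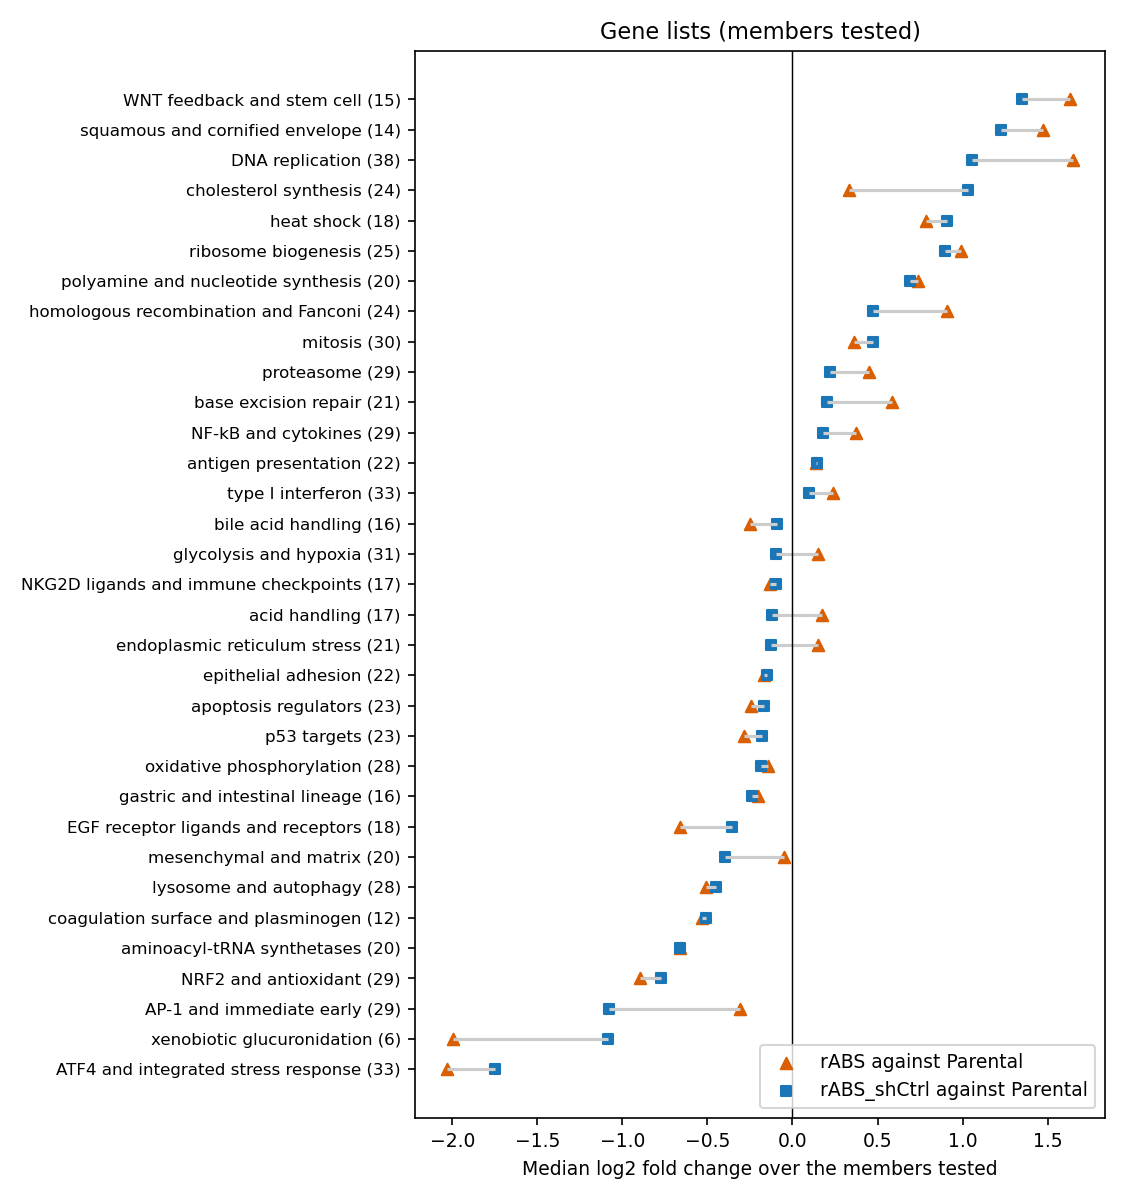
Median log2 fold change against Parental over the tested members of each gene list, for rABS (triangles) and rABS_shCtrl (squares), joined by a line, with the number of members tested in parentheses. Stress response genes are lowest in both (-2.03 and -1.75), and cholesterol synthesis (0.33 and 1.03) and immediate early genes (-0.31 and -1.08) are farther from 0 in rABS_shCtrl.

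Cholesterol synthesis genes were mostly higher after transduction than in rABS. All 24 tested members were higher in rABS_shCtrl than in Parental (median log2 1.03), against 27% of all genes. In rABS 14 were higher and 4 lower than Parental (median 0.33), against 29.9% each way over all genes. Between the exposed groups, 19 were higher in rABS_shCtrl than in rABS and 1 lower (17.9% and 18.6% over all genes). Of the members 9 had remained and moved further, 6 were later differences and 4 reversed, among them the squalene synthase FDFT1, the decarboxylase MVD and SREBF2, which encodes the transcription factor of the pathway. Over all genes, 1.58% were higher and moved further, 2.88% were later and higher, and 0.5% were reversed from a lower rABS level. IDI1, the isopentenyl diphosphate isomerase, rose in steps, from 12.6, 15.7 and 13.3 CPM in Parental to 32.6, 29.3 and 36 in rABS and 79.4, 71.1 and 71.9 in rABS_shCtrl. FDFT1 measured 61, 64.7 and 71.9 CPM in unexposed Parental cells, 52.5, 59.5 and 58.2 in rABS and 139, 132 and 139 in rABS_shCtrl, so that a slight fall in rABS gave way to a 2.08-fold rise. SREBF2 was also lowest in rABS and highest in rABS_shCtrl, but with a larger fall and a smaller rise over Parental. It was at 310.4, 281 and 299.5 CPM (Parental), 141, 149 and 144 (rABS) and 375, 398 and 390.1 (rABS_shCtrl). INSIG1, which holds the SREBP complex in the ER and is itself a target of it, was at 17.1, 19.4 and 18.3 CPM in Parental cells, 19.2, 18.4 and 22 in rABS and 62.4, 56 and 60.1 in rABS_shCtrl. Parental and rABS overlapped and every rABS_shCtrl library was above both (log2 against Parental 1.70 ± 0.092 SE, adjusted p = 1.83e-16; log2 against rABS 1.58 ± 0.091 SE, adjusted p = 1.32e-14). SQLE and DHCR7, of the later steps, stood 3.26-fold and 3.01-fold above Parental.

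Immediate early genes, transcribed within minutes of a growth or stress signal, were mostly lower after transduction than in rABS. Of 29 tested, 23 were lower than Parental and 2 higher (median log2 -1.08), against 26.1% and 27% of all genes. In rABS 17 were lower and 3 higher (median -0.31), against 29.9% each way over all genes. Against rABS, 17 were lower and 3 higher (18.6% and 17.9% over all genes), 10 had remained and moved further, and 7 were later differences. Over all genes, 1.63% had moved further and lower and 1.58% further and higher. Later differences were 2.48% lower and 2.88% higher over all genes. FOS (chr14:75278774-75282230) measured 78.2, 74.9 and 73.5 CPM in the Parental libraries, 44.1, 47.5 and 43.1 in rABS and 5.76, 6.87 and 6.87 in rABS_shCtrl. It was 11.6-fold below Parental (adjusted p = 3.54e-23) and 6.88-fold below rABS (adjusted p = 6.45e-19). FOSB was at 31.2, 32.4 and 28.2 CPM in unexposed Parental cells, 27.9, 20.8 and 25.3 in rABS and 2.96, 2.88 and 2.84 in rABS_shCtrl. JUN, the partner of FOS in AP-1, had 63.8, 52.6 and 54.8 CPM in Parental and 66, 73.6 and 56.4 in rABS, which overlapped, and 16.8, 16.8 and 17.2 in rABS_shCtrl. EGR1, a zinc finger factor, was at 269.6, 238 and 234 CPM (Parental), 231, 199 and 216 (rABS) and 73, 83.9 and 72.7 (rABS_shCtrl). DUSP1, a MAP kinase phosphatase, fell in steps to 6.82-fold below Parental, but DUSP5, which acts on ERK, was part-way, at 1211, 1128 and 1237 CPM in Parental cells, 143, 149 and 151 in rABS and 191, 202 and 208 in rABS_shCtrl. MYC was a member that rose, with 534, 515 and 505 CPM in the Parental libraries, 666, 649 and 638 in rABS and 717, 753 and 763 in rABS_shCtrl.

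**Figure D5:**
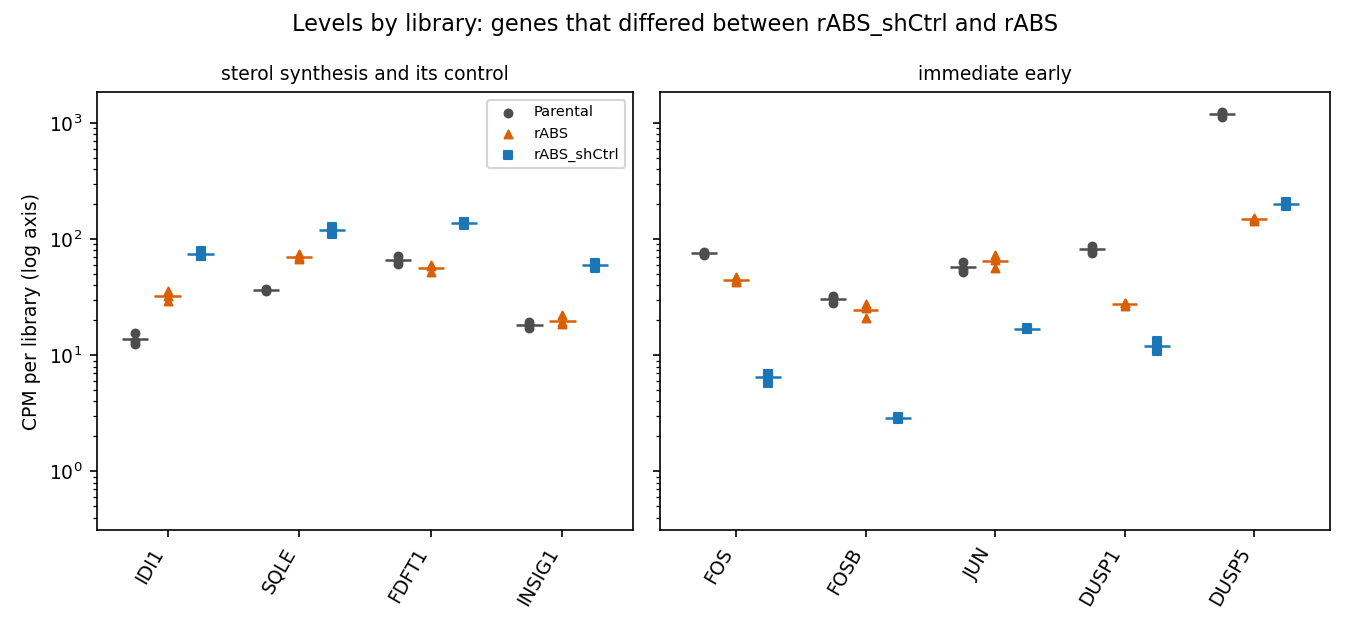
CPM per library (log axis, points) with group means (short lines) for sterol and immediate early genes in Parental (circles), rABS (triangles) and rABS_shCtrl (squares). FOS is at 5.76, 6.87 and 6.87 CPM in rABS_shCtrl and 44.1, 47.5 and 43.1 in rABS, and INSIG1 at 62.4, 56 and 60.1 and 19.2, 18.4 and 22. DUSP5 lies closer to its rABS level than to Parental.

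Ligands and receptors of the EGF family were lower than Parental for 10 of 18 and higher for 3 (26.1% and 27% over all genes), and 8 were higher than in rABS (17.9%). EREG, epiregulin, was at 1344, 1641 and 1364 CPM in unexposed Parental cells, 306, 282 and 343 in rABS and 551, 521 and 499.5 in rABS_shCtrl, and amphiregulin, AREG, at 377, 339 and 371 CPM (Parental), 76.6, 80.5 and 65.2 (rABS) and 115, 121 and 121 (rABS_shCtrl). EGFR itself and ERBB3 were 1.48-fold and 2.19-fold below Parental with no call against rABS. The feedback inhibitor ERRFI1 stood 2.53-fold below Parental.

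Of 29 NF-kB and cytokine genes, 11 were higher than Parental and 10 lower (median log2 0.18), against 27% and 26.1% of all genes, which also went in both directions. IL1A measured 204, 248 and 232 CPM in Parental cells, 16.7, 14.2 and 19.4 in rABS and 25.8, 20 and 22.6 in rABS_shCtrl (10-fold below Parental), and IL1B was 4.37-fold and LIF 2.93-fold below. The chemokine CXCL2 was lower than in both other groups, with 66, 67.2 and 63.7 CPM in the Parental libraries, 52.7, 48.2 and 45.5 in rABS and 12.9, 16.5 and 17.2 in rABS_shCtrl. Its relative CXCL1 went the other way, at 18, 15.9 and 15 CPM (Parental), 119.9, 127 and 115 (rABS) and 57.4, 51.1 and 54.5 (rABS_shCtrl). NFKB1 was not called (adjusted p = 0.0724, but 0.0432 under upper quartile scaling), although its libraries at 73.6, 76.5 and 69.5 CPM were above the Parental libraries at 66.2, 65.2 and 65.8.

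Type I interferon genes were higher for 12 of 33, lower for 8 and without a call for 13 (median log2 0.10), against 27% higher and 26.1% lower over all genes (median 0.03), so that the list's counts lie near the background. IRF1 measured 169, 157 and 175 CPM in unexposed Parental cells, 60.2, 65.2 and 59.2 in rABS and 56.1, 74.2 and 60 in rABS_shCtrl. OAS1, a sensor of double-stranded RNA, was lower in rABS_shCtrl than in both other groups, at 33.3, 33.6 and 33.7 CPM against 50.9, 49.4 and 47 in rABS and 52.7, 51.4 and 61.7 in Parental. Of 22 antigen presentation genes, 9 were higher and 7 lower (27% and 26.1% over all genes). CD74, the invariant chain of class II, kept its rise, with 5.54, 6.92 and 5.54 CPM in Parental cells, 56.2, 55.2 and 53.4 in rABS and 56.3, 63.5 and 66.5 in rABS_shCtrl (10.2-fold, adjusted p = 2.17e-21). HLA-B was part-way, 1.7-fold above Parental, although class I genes share sequence and their reads may be split. Among 17 NKG2D ligands and checkpoint genes, 4 were higher and 4 lower (median log2 -0.098, and 0.0089 without rABS_shCtrl replicate 1), near the 27% and 26.1% of all genes. The ligand MICB stood 2.9-fold above Parental and the phagocytosis inhibitor CD47 2.43-fold, while the ligand ULBP1 was at 5.54, 5.15 and 5.84 CPM in the Parental libraries, 0.0569, 0.116 and 0.101 in rABS and 0.898, 0.933 and 0.299 in rABS_shCtrl.

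Energy metabolism showed opposed members. Of 31 glycolysis and hypoxia genes, 11 were higher and 10 lower than Parental (27% and 26.1% over all genes), and 22 were lower than in rABS (18.6% over all genes). Their median log2 against Parental was -0.10, and 0.0029 without rABS_shCtrl replicate 2. Lactate dehydrogenase LDHA measured 368, 385 and 418 CPM in unexposed Parental cells, 1203, 1307 and 1221 in rABS and 994, 884 and 927 in rABS_shCtrl. VEGFA, the angiogenic factor, was at 277, 249.5 and 256 CPM (Parental), 51.8, 58.2 and 51.6 (rABS) and 61.1, 70.3 and 61.7 (rABS_shCtrl), and PFKFB3, an activator of glycolysis, was 2.33-fold below Parental. Oxidative phosphorylation genes were lower for 14 of 28 (26.1% over all genes) and higher for 2, by small steps such as 1.48-fold for SDHA. Apoptosis regulators were lower for 11 of 23 and higher for 4 (26.1% and 27% over all genes), with MCL1 1.87-fold and the effector BAK1 1.92-fold below Parental and BCL2 2.33-fold above. Of 12 genes of coagulation and plasminogen activation, 7 were lower and 4 higher, against the same 26.1% and 27%. Urokinase, PLAU, had 1737, 1675 and 1902 CPM in Parental cells, 426, 483 and 457 in rABS and 446, 428 and 463 in rABS_shCtrl, and the tissue activator PLAT rose in steps, at 34.1, 33.1 and 34 CPM (Parental), 53.3, 53.6 and 49.9 (rABS) and 126, 134 and 136 (rABS_shCtrl).

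Among the genes that had returned, those with the largest rABS difference are given here. They were picked by that difference, and the groups are separate libraries, so no course over time was followed. SNPH, which anchors axonal mitochondria, was at 14, 14.7 and 15.1 CPM in the Parental libraries, 75.8, 77.3 and 75.8 in rABS and 16.3, 18.4 and 14.4 in rABS_shCtrl, and no library of rABS_shCtrl reached a rABS library (log2 against rABS -2.22 ± 0.096 SE, adjusted p = 1.53e-17; against Parental adjusted p = 0.176). MUC3A, an intestinal membrane mucin, went the other way, with 39.2, 41.4 and 39.7 CPM (Parental), 11.1, 8.96 and 10.1 (rABS) and 38.6, 47.6 and 45.9 (rABS_shCtrl). GSDMB, a pore-forming gasdermin, had 31.2, 30.2 and 28.2 CPM (Parental), 8.09, 6.75 and 7.21 (rABS) and 22.1, 27.6 and 26.2 (rABS_shCtrl) and was not called (adjusted p = 0.0644), although every rABS_shCtrl library was below every Parental library. Without rABS_shCtrl replicate 2 it was called lower (adjusted p = 0.0393). PGBD1, PARD6A and TCTA had returned from higher levels and SEMA6B and GABBR1 from lower ones, each with a call between rABS_shCtrl and rABS. Without rABS_shCtrl replicate 2, PGBD1 and PARD6A were called higher than Parental (adjusted p = 0.0315 and 0.00909).

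Reversed genes are shown by those farthest from Parental. ARRDC3, an arrestin-domain protein, measured 66.3, 86.9 and 67.5 CPM in unexposed Parental cells, 90.1, 88.7 and 97 in rABS and 44.6, 36.7 and 37.9 in rABS_shCtrl. FAM171B was at 35.5, 44.9 and 36.3 CPM (Parental), 28.1, 24.7 and 28.8 (rABS) and 67.8, 61 and 67.4 (rABS_shCtrl), and TNFRSF9, a costimulatory receptor, at 5.95, 7.35 and 7.14 CPM (Parental), 9.34, 7.79 and 11 (rABS) and 3.96, 3.31 and 4.48 (rABS_shCtrl). The histone gene H2AC7 was called lower than Parental (adjusted p = 0.00627), a call lost without rABS_shCtrl replicate 2 (adjusted p = 0.0585). The non-coding RNAs ADIRF-AS1 and LINC02246 were 1.67-fold and 1.64-fold above Parental after a fall in rABS, with the same limit on strand for the antisense transcript.

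Later differences and genes that went further came from unlike classes. STEAP4, a metalloreductase, was at 12.6, 14 and 13.6 CPM in Parental cells, 14.8, 14.1 and 16.3 in rABS and 56.7, 47 and 49.6 in rABS_shCtrl, with every rABS_shCtrl library well above the others. MIR205HG, the host transcript of a squamous microRNA, had 12.7, 15.4 and 14.6 CPM (Parental), 15.3, 15.4 and 16.5 (rABS) and 44.2, 45.4 and 39.2 (rABS_shCtrl). CCN2, a matricellular protein and YAP target, was lower, at 3.38, 3.52 and 2.19 CPM against 9.17, 7.04 and 6 in rABS and 9.62, 8.14 and 9.61 in Parental, whereas ANKRD1, also a YAP target, was at 7.71, 8.48 and 8.66 CPM against 1.25, 1.51 and 0.807 in rABS and 0.208, 0.281 and 0.236 in Parental. The chemokine receptor relative CCRL2 fell 2.5-fold below Parental, and RNVU1-6, a variant U1 small nuclear RNA without a poly(A) tail, 4.52-fold. FGFBP1, a carrier of fibroblast growth factors, and the phosphatase PTPN22 rose 15.9-fold and 5.64-fold over Parental and lay above rABS in every library.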

How the data were processed

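Polyadenylated RNA of 12 OE33 libraries, 3 in each of 4 groups named by the sample titles, was sequenced. The deposited table holds raw read counts per gene; Trimmomatic 0.36, STAR 2.5.2b, featureCounts of Subread 1.5.2 and the build GRCh38 are named in the submitters' processing notes, and the sources used here give neither the annotation nor the strand setting nor the handling of multiply mapped reads. Gene symbols and positions came from the reference tables and GENCODE 29.

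From the deposited counts, genes were kept by filterByExpr (minimum count 10, minimum total 15), scaled by TMM and fitted with edgeR 4.0.16 (R 4.3.3, quasi-likelihood, robust) over all 12 libraries, 1 term per group, so that 4 groups share the estimate of spread. Calls are at an adjusted p (Benjamini-Hochberg, over 15805 genes) under 0.05. CPM values are per TMM-scaled library (marker sums unscaled), log2 differences carry standard errors (SE), and list medians are over tested members. The members of the comparison and the 33 lists were chosen with earlier results of these data known. Genes named are APEX1, the 10 largest rises and falls at 5 CPM or more without overlap, the first-listed and up to 4 lowest-p members of each list, and 4 genes per direction that returned, reversed, moved further or appeared later. ATF3, CDT1, CHAC1, COL1A1, CXCL1, EGR1, MCM3, MVD, MYC, SREBF2, ATF5, VLDLR, OGG1, MBD4, XRCC1 and PARP2 were added after their values were seen, and some genes that the rule names are not reported here. On simulated counts for this comparison (15393 genes), 86% of 50 genes changed 1.5-fold, 94% of 100 changed 2-fold and 100% of 50 changed 4-fold were called, and 12 of 199 calls were false. Only these genes were changed, in rABS_shCtrl alone, and they were drawn from genes at a mean of 1 CPM or more. The data held far more differences (53.1% of genes called), so the rates need not hold there or at lower levels. Alternatives were RLE and upper quartile scaling, other filters, 9 or 6 libraries, DESeq2 1.42.0, limma-voom (limma 3.58.1), a 1.5-fold threshold, a replicate block and leaving out each library.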

Additional observations from a re-analysis of the deposited data

How the results depend on the processing

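Under RLE and upper quartile scaling, no filter or a filter at a mean of 1 CPM, fits of 9 libraries, DESeq2 and limma-voom, every count of calls and every position count stayed within 1.5 times its value, and the share of higher calls lay between 49.8 and 52.7% for rABS_shCtrl against Parental; the fit of 6 libraries kept the calls against Parental within the same range and gives no position counts. A test against a 1.5-fold threshold left fewer genes: 1318 higher and 1089 lower for rABS_shCtrl against Parental, 1977 and 1820 for rABS against Parental, 250 and 219 for rABS_shCtrl against rABS. Of the differences in rABS, 990 higher and 880 lower then remained, 1762 near rABS, 80 part-way and 28 further, with 218 returned, 4 reversed and 66 later. Adding the replicate block gave 4129 higher and 4010 lower genes against Parental, and 9266 and 5457 calls in all for rABS against Parental and rABS_shCtrl against rABS; the libraries share only a number, since same-numbered libraries did not deviate together (correlations of deviations -0.17 to 0.05 over 9 pairs). Leaving out each library in turn gave 3862 to 4012 higher and 3732 to 3928 lower genes against Parental, 4491 to 4663 and 4374 to 4485 for rABS, and 2228 to 2551 and 2422 to 2649 against rABS. Those that remained numbered 3056 to 3275 higher and 3021 to 3266 lower, with 3536 to 4296 near rABS, 1715 to 2193 part-way, 343 to 555 further, 1289 to 1725 returned, 118 to 173 reversed and 678 to 900 later. No named gene changed sign with a call; 28 of their values lost a call, 24 of them under the 1.5-fold threshold, 8 gained one and 2924 were on the same side. The list medians that changed sign were those of glycolysis and hypoxia (0.0029 without rABS_shCtrl replicate 2), of bile acid handling (0.0051 with 6 libraries) and of NKG2D ligands and checkpoints (0.0402 with the 1 CPM filter, 0.0089 without rABS_shCtrl replicate 1). At this depth genes under about 10 counts were not tested, and 3 libraries per group limit the precision of small differences.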

Other observations

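Genes were also grouped by position on the genome, in windows of 10 Mb with at least 20 tested genes (257 windows, GRCh38, chosen after the values were seen). The median over windows of the median log2 difference between rABS_shCtrl and Parental was 0.03. The highest window lay on chromosome 11 between 80 and 90 Mb, where 25 genes had a median of 0.67, 15 of them called higher and 2 lower. Its neighbours were also high, with a median of 0.49 over 31 genes between 90 and 100 Mb (17 higher, none lower) and 0.43 over 35 genes between 100 and 110 Mb (21 higher, 4 lower). In rABS the medians of these 3 windows against the same Parental libraries were 0.50, 0.55 and 0.28, and between rABS_shCtrl and rABS they were 0.08, 0.09 and 0.08. The lowest window lay on chromosome 2 between 80 and 90 Mb, with a median of -0.56 over 41 genes, against -0.47 in rABS.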
